A study of Mus musculus with 16 samples.

Results

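Small non-coding RNA of the megakaryocyte-erythroid progenitor (MEP) was compared with that of cells labelled Erythroid. The members were the 2 libraries whose cell type label reads MEP and the 2 whose label reads Erythroid, 4 of the 16 libraries of the series. Both populations came from wild-type mouse bone marrow and were sorted by flow cytometry. Their antibodies included a lineage cocktail with the erythroid surface marker Ter119, but the labels do not say which markers defined the Erythroid gate. Age, strain, the number of mice and whether replicate libraries stem from separate animals are not given in the sources used here, so p-values measure only a spread among libraries that could be technical. Total counts were 23013702 and 16005872 in MEP libraries 1 and 2, and 17193622 and 19974948 in Erythroid libraries 1 and 2, within a range of 8197458 to 41799906 over the series. The 4 libraries listed 1389 of 1885 annotated intervals, and 749 intervals passed the filter on low counts.

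MEPs are bipotent precursors that give rise to platelet-forming megakaryocytes and to red cells. Erythroid maturation is a time of intense protein synthesis and then of nuclear condensation, during which ribosome production declines. Small nucleolar RNAs (snoRNAs) serve ribosome production: C/D snoRNAs guide 2′-O-methylation and H/ACA snoRNAs guide pseudouridylation, mostly of rRNA, and a few such as U3, U8, U13, U14 and U17 take part in cleaving the rRNA precursor or in other steps of its maturation. Most mouse snoRNAs are cut from the introns of host genes, many of which encode ribosomal or nucleolar proteins.

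The libraries stood apart in miRNA. Over 202 tested miRNA intervals, the median log2 ratio of library 1 over library 2 was 1.32 in MEP and -1.29 in Erythroid, whereas over the 547 other intervals it was -0.02 in MEP and 0.02 in Erythroid. MiRNA intervals held 1.42% of counts in MEP library 1 and 0.546% in MEP library 2, against 0.754% in Erythroid library 1 and 1.97% in Erythroid library 2. MiRNA results are therefore given below for libraries of like miRNA share as well. By rank correlation over the tested intervals, MEP library 1 lay nearest to CLP library 2 (rho 0.979) and MEP library 2 to CLP library 1 (0.973), against 0.968 between the MEP libraries. Erythroid library 1 lay nearest to CLP library 2 (0.965) and Erythroid library 2 to Myeloid library 2 (0.967), against 0.964 between the Erythroid libraries. CLP is the common lymphoid progenitor, and the Myeloid population is labelled Myloid.

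RNAs that differed are shown here with their sequences, 5′ to 3′, from GENCODE M21 on GRCm38. Capitals mark the H box (ANANNA) and the ACA of H/ACA snoRNAs, and the C box, found with at most 1 mismatch, and the D box (CTGA) of C/D snoRNAs. Snora43 was higher in MEP, and Gm25117, Snord71 and Snord69 were lower.
Snora43: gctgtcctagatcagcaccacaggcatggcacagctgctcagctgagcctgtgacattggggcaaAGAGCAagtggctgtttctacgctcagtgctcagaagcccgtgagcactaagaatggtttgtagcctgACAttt
Gm25117: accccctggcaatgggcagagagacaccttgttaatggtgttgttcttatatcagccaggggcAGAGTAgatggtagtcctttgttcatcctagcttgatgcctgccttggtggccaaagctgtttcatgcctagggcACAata
Snord71: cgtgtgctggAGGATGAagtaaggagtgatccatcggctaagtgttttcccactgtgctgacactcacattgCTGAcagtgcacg
Snord69: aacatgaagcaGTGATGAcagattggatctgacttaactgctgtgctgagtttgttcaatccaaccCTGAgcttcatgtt

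In MEP, 41 intervals were higher (5.47%) and 33 lower (4.41%) than in Erythroid, 74 of 749 tested (9.88%), by edgeR's quasi-likelihood test at an adjusted p below 0.05. The libraries of MEP and Erythroid did not overlap in any of the 74, nor in 348 of all 749 intervals (46.5%). Of the called intervals, 46 were snoRNAs, and most changes were small: 20 reached 2-fold, and 8 of these had a mean of at least 10 CPM, the count scaled to a library size of 1e6 after TMM scaling. The split between directions depended on scaling, since library totals alone gave 69 higher and 29 lower. The fit took the spread from all 8 populations. This can understate it for miRNAs, whose replicate libraries differed more in MEP and Erythroid than in Myeloid. An unblocked fit on the 4 libraries alone called 0 intervals, with 95 at an unadjusted p below 0.05, while DESeq2 on all libraries called 65. The count was 30 without MEP library 2, 43 without Erythroid library 1, 49 without Erythroid library 2 and 37 without Myeloid library 1. There were 28 called intervals named for the size of their change, their p, their abundance or as a listed marker. Of these, 9 were called in every setting that tested them and kept other populations in the fit. Snora43, Gm47276, Gm47281, Snord13, mt-Tm and Snord70 were higher, and Gm25117, Snord71 and Snord69 were lower. Gm47276 and Gm47281 have the same bases and are not separate results. The fit without similar copies or overlaps did not test Snora43, Gm47276, Gm47281 or Gm25117. The fit limited to snoRNA classes did not test Gm47276, Gm47281 or mt-Tm.

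**Figure D1:**
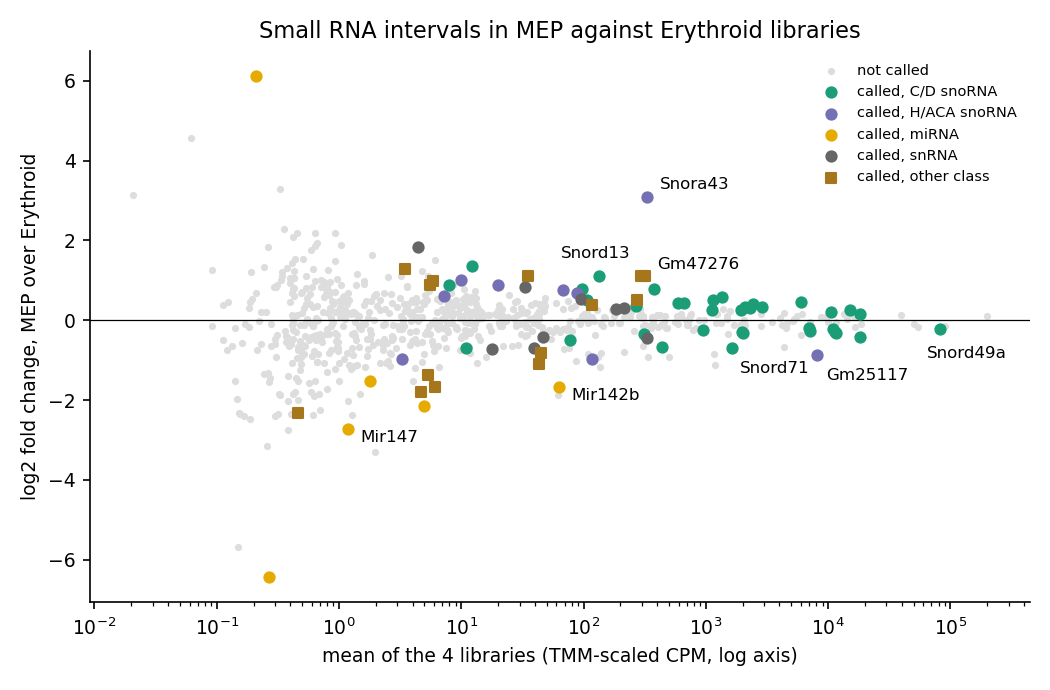
Each point is 1 of 749 intervals, with its mean over the 4 libraries on a log axis of TMM-scaled CPM and its log2 fold change of MEP over Erythroid. Colours mark the class of the 74 called intervals, and grey points were not called. Snora43 stands highest among the abundant intervals, at a log2 fold change of 3.08.

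Snora43, an H/ACA snoRNA, showed the largest difference among abundant intervals. It had 600 and 580 CPM in MEP libraries 1 and 2, against 80.1 and 59.9 CPM in Erythroid libraries 1 and 2. Both MEP libraries lay far above both Erythroid libraries, and the counts behind them were 14492 and 9248 in MEP, against 1328 and 1196 in Erythroid. The log2 fold change was 3.08 ± 0.15 (SE), or 8.43-fold, with an adjusted p of 2.7e-07 in edgeR's quasi-likelihood test. The interval lies at chr2:26637847-26637985 on the minus strand of GRCm38, within the RefSeq span of Snhg7 (chr2:26637176-26640244), a non-coding snoRNA host gene. A second annotated Snora43 interval that overlaps it had 2 counts in each MEP library and 0 in each Erythroid library. Across the 8 populations MEP was highest at 590 ± 14.6 CPM (SD, n = 2) and GMP, the granulocyte-monocyte progenitor, was next at 301 ± 32.8 CPM. Erythroid stood at 70.0 ± 14.3 CPM among the 24.1 to 91.4 CPM of the mature populations. Of the other progenitors, CLP had 190 ± 1.9 CPM, while CMP, the common myeloid progenitor, had 67.7 ± 4.3 CPM, within the mature range. High Snora43 was thus not shared by all progenitors.

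Apart from Snora43, 5 of 111 tested H/ACA snoRNAs rose (4.50%) and 3 fell (2.70%), shares near or below the 5.47% and 4.41% of all 749 intervals. Their median log2 fold change was 0.17, beside 0.01 over all intervals. Snora26, in an exon of Dancr, had 27.0 and 24.4 CPM in MEP, against 13.4 and 14.5 CPM in Erythroid (log2 fold change 0.89 ± 0.14). Snora28, in Eif5, rose by 0.76 ± 0.11 and Snora57 by 0.67 ± 0.14 on the log2 scale. For each of these 3 the MEP libraries lay above the Erythroid libraries, and the call of Snora57 was lost without MEP library 2 (adjusted p = 0.259 in edgeR), Erythroid library 2 (0.0962) or Myeloid library 1 (0.0763).

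The most abundant H/ACA snoRNA moved the other way. Gm25117, within an intron of Nap1l1, which encodes a histone chaperone, had 5491 and 6079 CPM in MEP, against 11561 and 9520 CPM in Erythroid. Both MEP libraries lay below both Erythroid libraries, with a log2 fold change of -0.87 ± 0.10 and an adjusted p of 0.000401 in edgeR's quasi-likelihood test. Gm25291, in an intron of Sec24a, had 74.8 and 82.1 CPM in MEP, against 181 and 129 CPM in Erythroid (log2 fold change -0.98 ± 0.16). Gm25117 has 4 similar annotated copies and Gm25291 has 14, so reads may be split among them. Gm25117 alone held 0.576% and 0.606% of counts in MEP, against 1.12% and 0.952% in Erythroid. The other H/ACA snoRNAs summed to 0.243% and 0.233% in MEP, against 0.181% and 0.148% in Erythroid, while the class total was 0.819% and 0.839% in MEP, against 1.30% and 1.10% in Erythroid. Snora43 made up much of the gap in these others: without it and Gm25117 the class summed to 0.180% and 0.176% in MEP, against 0.173% and 0.142% in Erythroid.

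C/D snoRNAs made up 89.2% and 89.5% of counts in MEP, against 88.3% and 87.7% in Erythroid. Of 169 tested, 21 rose and 15 fell, beside 41 higher and 33 lower of all 749 intervals (5.47% and 4.41%). Their median log2 fold change was 0.03, with a median absolute change of 0.36 among those called. The most abundant intervals differed little. Gm26224 of Gas5 had 204920 and 206892 CPM in MEP, against 197453 and 188467 CPM in Erythroid, and did not pass (adjusted p = 0.338 in edgeR's quasi-likelihood test). Snord2 of Eif4a2 and Gm23301 of Rpl17 did not pass either, at log2 fold changes of -0.16 ± 0.07 and -0.16 ± 0.05. The 45S pre-rRNA interval, which covers the rRNA precursor, held 7.81% and 8.44% of counts in MEP, against 9.09% and 8.65% in Erythroid, and did not pass (log2 fold change -0.18 ± 0.10).

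Snord13 (U13), a C/D snoRNA that assists acetylation of the small-subunit rRNA in human cells, was the called C/D snoRNA above 100 CPM with the largest rise. It had 161 and 203 CPM in MEP, against 78.9 and 90.9 CPM in Erythroid, so the groups did not overlap. The log2 fold change was 1.10 ± 0.12, with an adjusted p of 0.000309 in edgeR's quasi-likelihood test. Snord13 was the only one of 19 tested rRNA-processing snoRNA intervals to pass, beside 5.47% higher and 4.41% lower of all 749 intervals. A list of this size with 1 call is near those shares. The list's median log2 fold change was 0.10. Of the 19, 17 had a positive one, 8 of them Rnu3b intervals of U3. Rnu3a and each of Rnu3b1 to Rnu3b4 are listed as overlapping intervals of nearly the same span, which may share reads. The 17 are therefore not separate RNAs. Snord22 (U22), needed for maturation of the small-subunit rRNA in Xenopus, had 117 and 98.7 CPM in MEP, against 148 and 131 CPM in Erythroid. Its groups did not overlap, but it did not pass (log2 fold change -0.37 ± 0.12, adjusted p = 0.0658 in edgeR's quasi-likelihood test). Snord118 (U8), needed for processing of the large-subunit rRNAs, had 109 and 104 CPM in MEP, against 96.1 and 96.0 CPM in Erythroid, with a log2 fold change of 0.16 ± 0.09. The U3 intervals of Rnu3a and Rnu3b, the U14 intervals of Snord14 and the U17 intervals Snora73a and Snora73b had log2 fold changes between -0.09 and 0.35.

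Among falling C/D snoRNAs, Snord71 had the smallest p. It had 1202 and 1269 CPM in MEP, against 2042 and 1982 CPM in Erythroid. Both MEP libraries lay below both Erythroid libraries, with a log2 fold change of -0.70 ± 0.05 and an adjusted p of 7.9e-06 in edgeR's quasi-likelihood test. Snord71 lies at chr8:109839295-109839379 on the plus strand in an intron of Ap1g1, which encodes a clathrin adaptor subunit. Snord69, from the nucleolar GTPase gene Gnl3, had 317 and 353 CPM in MEP, against 549 and 522 CPM in Erythroid (log2 fold change -0.68 ± 0.07), and the other 2 tested snoRNAs of Gnl3 did not pass. Snord12 of Zfas1 and Snord37 of Eef2 fell by 0.29 and 0.26 on the log2 scale. Without Erythroid library 1 both calls were lost, at adjusted p of 0.1004 for Snord12 and 0.285 for Snord37 in edgeR, and that of Snord37 was also lost without MEP library 2 (0.0994).

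**Figure D2:**
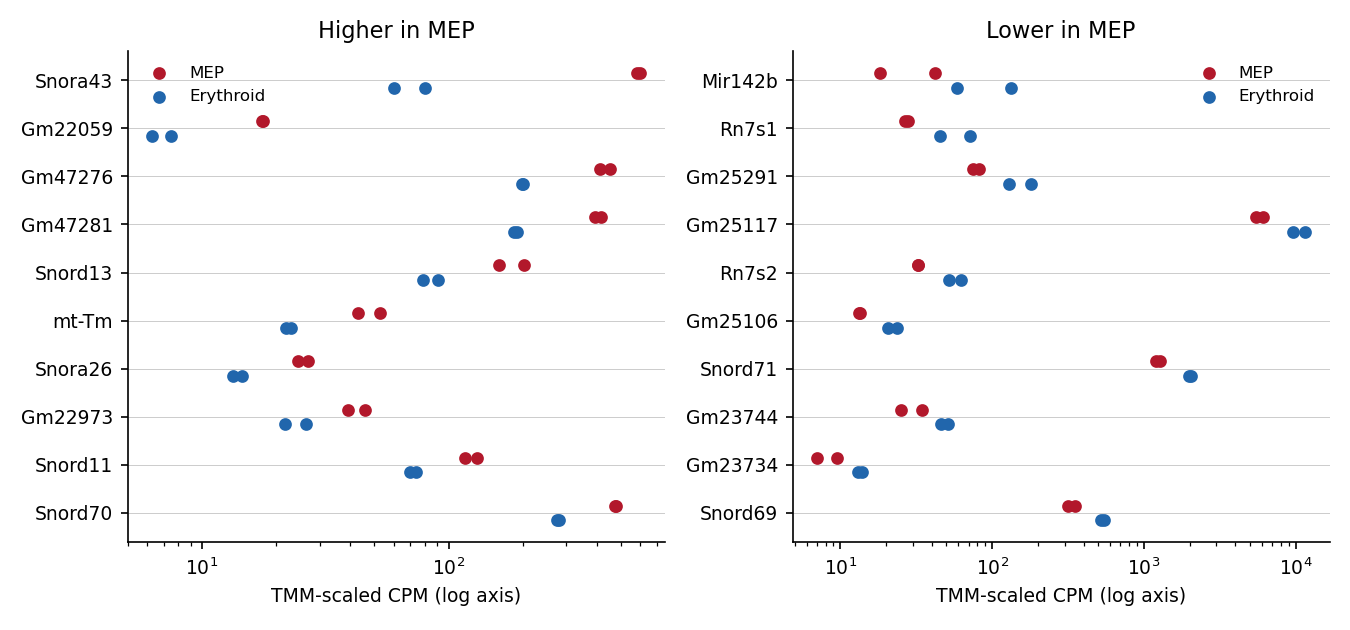
Each row is 1 of the 10 largest called rises (left) and 10 largest called falls (right) whose mean reached 10 CPM, and each point is 1 library on a log axis of TMM-scaled CPM. MEP points sit right of the Erythroid points in every row on the left and left of them in every row on the right. Mir142b shows the widest scatter, with 41.8 and 18.2 CPM in MEP, against 59.1 and 134 CPM in Erythroid.

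The snoRNAs of 1 host gene did not always move together. Of 53 hosts with at least 2 tested snoRNAs, 19 held a called one: 8 held higher ones only, 7 lower ones only, and 4 held both (Snhg1, 2410006H16Rik, Rack1 and Zfas1). Over all 749 intervals 5.47% were higher and 4.41% lower. Of 20 settings with other populations in the fit, the lower call held in 7 for Snord49a of 2410006H16Rik and in 13 for Snord12 of Zfas1. The calls in Snhg1 and Rack1 were not followed through the settings. In 2410006H16Rik all 3 tested snoRNAs were called. Snord65 had 6737 and 7081 CPM in MEP, against 4907 and 5143 CPM in Erythroid (log2 fold change 0.46 ± 0.04, adjusted p 6.3e-05 in edgeR's quasi-likelihood test). Snord49b had 1288 and 1407 CPM in MEP, against 970 and 916 CPM in Erythroid (0.51 ± 0.06), a call lost without MEP library 2 (adjusted p = 0.0769 in edgeR). Snord49a, from the same host and far more abundant, had 74847 and 76324 CPM in MEP, against 91183 and 85591 CPM in Erythroid (-0.23 ± 0.06), a call lost under most alternatives, among them RLE scaling (adjusted p = 0.265), DESeq2 (0.309) and fits without MEP library 1 (0.101), MEP library 2 (0.210) or Erythroid library 1 (0.421). The sequences are shown because Snord49a and Snord49b are alike over part of their 72 bases, with 13 in the longest shared run, yet stood on opposite sides, and capitals mark the C and D boxes.
Snord65: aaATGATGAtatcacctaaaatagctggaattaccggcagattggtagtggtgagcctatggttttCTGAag
Snord49a: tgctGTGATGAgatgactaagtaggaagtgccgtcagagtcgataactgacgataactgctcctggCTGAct
Snord49b: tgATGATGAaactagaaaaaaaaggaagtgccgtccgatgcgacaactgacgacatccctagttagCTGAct

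In Nop58, which encodes a core protein of C/D snoRNA particles, 3 of 4 tested snoRNAs rose and none fell. Snord70 had 479 and 474 CPM in MEP, against 280 and 276 CPM in Erythroid (log2 fold change 0.78 ± 0.08). Snord11 had 117 and 130 CPM in MEP, against 69.8 and 74.1 CPM in Erythroid (0.78 ± 0.12), and Gm26293 rose by 0.50 ± 0.10 on the log2 scale. The 4th, Gm26287, had a log2 fold change of 0.38 and did not pass. In Nop56, whose product is the partner of the Nop58 protein, 2 of 5 rose, Gm23650 by 0.57 and Snord110 by 0.26. In Rpl13a, Snord34 rose by 0.42 and Snord32a by 0.32, and the other 2 did not pass. Over ribosomal protein hosts, 4 of 59 tested snoRNAs rose and 5 fell, with a median of 0.07. The shares over all 749 intervals were 5.47% higher and 4.41% lower. In Gas5, 1 of 10 fell and none rose, and none of the 5 of Eif4a2 passed. Without MEP library 2 the calls of Gm26293 (adjusted p = 0.225 in edgeR), Gm23650 (0.0785), Snord110 (0.619), Snord34 (0.161) and Snord32a (0.267) were lost. Without Erythroid library 1 those of Snord110 and Snord32a were lost, without Erythroid library 2 those of Gm26293 and Snord110, without Myeloid library 1 those of Gm26293, Snord110 and Snord32a, and without either GMP library that of Snord110. Snord70 and Gm26293 lie side by side in Nop58 and have similar sequences; capitals mark the boxes as above.
Snord70: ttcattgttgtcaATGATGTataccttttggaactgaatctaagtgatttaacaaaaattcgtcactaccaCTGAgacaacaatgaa
Gm26293: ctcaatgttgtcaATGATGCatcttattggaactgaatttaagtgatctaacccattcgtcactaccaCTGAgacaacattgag

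**Figure D3:**
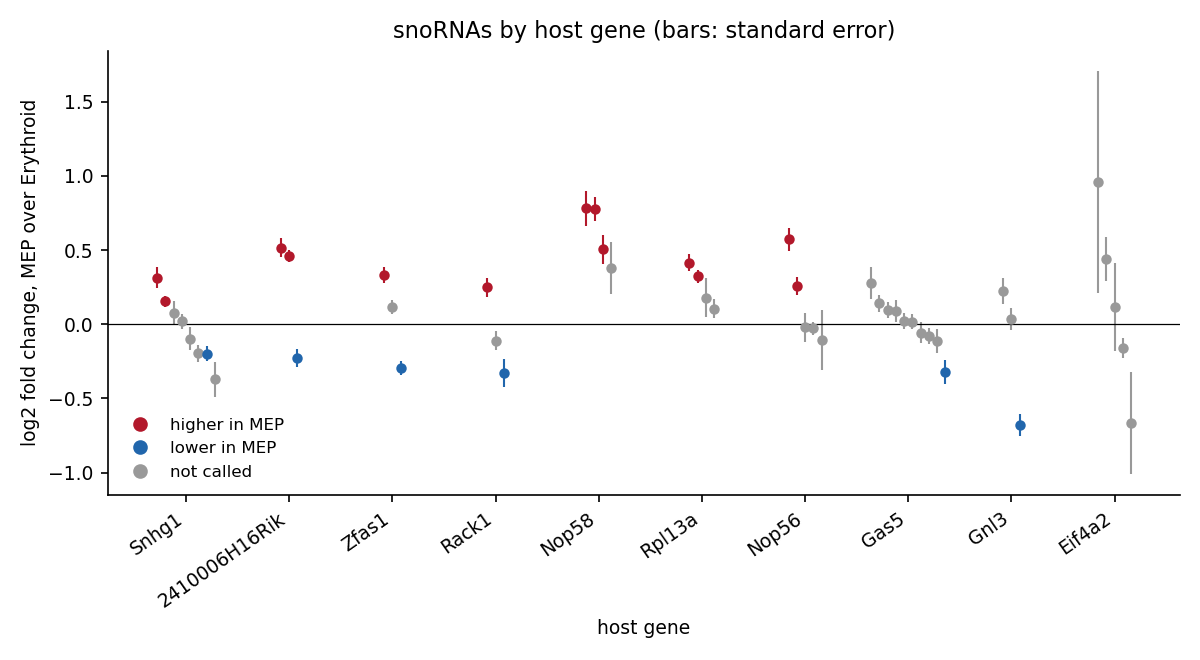
Points are the log2 fold changes of MEP over Erythroid for the tested snoRNAs of 10 host genes, with bars of 1 standard error, coloured by call. Snhg1, 2410006H16Rik, Zfas1 and Rack1 hold called snoRNAs on both sides of 0, and all 4 points of Nop58 lie above 0.

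Of 4 tested 5S rRNA intervals, 2 with the same bases rose and 2 did not pass, beside 5.47% higher and 4.41% lower of all 749 intervals. Gm47276, an interval within Lsamp whose sequence matches the 5S rRNA gene family, had 452 and 411 CPM in MEP, against 201 and 198 CPM in Erythroid (log2 fold change 1.11 ± 0.14, adjusted p 0.000524 in edgeR's quasi-likelihood test). Gm47281 on chromosome Y has the same 60 bases and nearly the same values (log2 fold change 1.11 ± 0.13), so the reads of both cannot be told apart. Gm47301 on chromosome 4 differs from Gm47276 by A5G and C59G, counted from the 5′ end of the interval, and its bases at these positions are in capitals. It had 373 and 351 CPM in MEP, against 400 and 363 CPM in Erythroid, and did not pass (log2 fold change -0.08 ± 0.09). Gm47276 has 121 similar annotated copies, so a level of 1 locus cannot be given.
Gm47276: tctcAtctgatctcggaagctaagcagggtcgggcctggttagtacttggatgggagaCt
Gm47301: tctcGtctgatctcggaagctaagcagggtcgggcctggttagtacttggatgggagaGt

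Of 21 tested mitochondrial tRNAs, 3 rose and none fell, beside 5.47% higher and 4.41% lower of all 749 intervals. The median log2 fold change was 0.40, beside 0.01 over all intervals, and 20 of the 21 were positive. The tRNA for methionine, mt-Tm, had 43.0 and 52.9 CPM in MEP, against 23.0 and 21.8 CPM in Erythroid (log2 fold change 1.10 ± 0.16). The tRNAs for cysteine, mt-Tc, and histidine, mt-Th, rose by 1.27 ± 0.28 and 0.38 ± 0.10 on the log2 scale. The large mitochondrial rRNA, mt-Rnr2, had 308 and 337 CPM in MEP, against 240 and 218 CPM in Erythroid (0.50 ± 0.11), while the small one, mt-Rnr1, did not pass (0.17 ± 0.13). The call of mt-Tm held without each library in turn. Those of mt-Tc, mt-Th and mt-Rnr2 were lost without MEP library 2 (adjusted p = 0.0520, 0.584 and 0.333 in edgeR) and without either Erythroid library, that of mt-Tc also without MEP library 1, those of mt-Th and mt-Rnr2 without Myeloid library 1, and that of mt-Th without Myeloid library 2 or either GMP library. Summed, mitochondrial tRNAs held 0.0336% and 0.0355% of counts in MEP, against 0.0232% and 0.0253% in Erythroid. In bulk libraries, fewer cells that carry an RNA and less of it per cell cannot be told apart.

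Among spliceosomal and other small RNAs, 5 of 118 tested snRNA intervals rose and 4 fell (median 0.06). Over all 749 intervals, 5.47% were higher and 4.41% lower. Rnu7, the U7 RNA that processes histone mRNA ends, had 256 and 301 CPM in MEP, against 382 and 380 CPM in Erythroid (log2 fold change -0.45 ± 0.08), a call lost without Erythroid library 1 (adjusted p = 0.0872 in edgeR). Many snRNA intervals are copies of one another, and 31 of the 74 called intervals, against 350 of the 749 tested, overlapped another interval or had a similar copy. Of 7 tested housekeeping RNAs, 2 fell, both of the signal recognition particle that directs secreted proteins to the endoplasmic reticulum. Rn7s1 had 27.9 and 26.8 CPM in MEP, against 71.4 and 45.7 CPM in Erythroid (log2 fold change -1.10 ± 0.21), and Rn7s2 had 32.3 and 32.7 CPM in MEP, against 62.3 and 52.3 CPM in Erythroid (-0.82 ± 0.14). The 2 intervals are similar copies, and the call of Rn7s1 was lost without MEP library 2 (adjusted p = 0.0520 in edgeR) and without Erythroid library 1 (0.0567). The 7SK RNA Rn7sk, which holds back transcription elongation, had a log2 fold change of -0.24 ± 0.10 and did not pass.

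The cell type labels could be checked only through miRNAs, which a library selected for snoRNA length holds as a small share. Counts cover whole annotated intervals, 72 bases for Mir451a with Mir451b and 66 for Mir144. Mature miRNAs and their precursors were therefore not told apart, and the levels below are those of intervals. Mature sequences of the defining miRNAs, from RefSeq on GRCm38.p6, are shown with the seed, bases 2 to 8, in capitals, and no 2 of them share a seed.
mmu-miR-451a: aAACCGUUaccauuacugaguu
mmu-miR-144-3p: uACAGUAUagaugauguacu
mmu-miR-223-3p: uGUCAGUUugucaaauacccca
mmu-miR-139-5p: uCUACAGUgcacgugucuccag
mmu-miR-142a-3p: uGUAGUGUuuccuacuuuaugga

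Erythroid miRNAs did not separate the populations. The interval of Mir451a, the hallmark miRNA of red cells, and of Mir451b, which overlaps it, had 180 and 124 CPM in MEP, against 114 and 180 CPM in Erythroid. The groups overlapped, with a log2 fold change of 0.05 ± 0.27. MEP at 152 ± 39.7 CPM and Erythroid at 147 ± 46.9 CPM (SD, n = 2 each) were the highest of the 8 populations, CLP stood at 127 ± 6.5 CPM within that spread, and the other 5 lay between 12.1 and 90.9 CPM. Mir144 had 6.79 and 2.38 CPM in MEP, against 0.844 and 4.31 CPM in Erythroid, and Mir486 had 10.3 and 3.13 CPM in MEP, against 1.33 and 4.41 CPM in Erythroid. None of the 3 erythroid intervals passed, and their median log2 fold change was 0.83. Their summed level was 198 and 130 CPM in MEP, against 116 and 189 CPM in Erythroid. The level of these intervals was thus no higher in the libraries labelled Erythroid than in the MEP libraries. Levels of the mature miRNAs were not measured apart.

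Of the myeloid miRNAs, only Mir147 passed, lower in MEP than in the libraries labelled Erythroid. All 3 myeloid intervals had negative log2 fold changes (median -1.88), and 1 was called. Mir147 fell, at 6 counts in each MEP library, against 18 and 60 counts in Erythroid (log2 fold change -2.74 ± 0.56, adjusted p 0.00967 in edgeR's quasi-likelihood test). Mir139 had 39.1 and 13.3 CPM in MEP, against 50.5 and 142 CPM in Erythroid (-1.88 ± 0.54, adjusted p = 0.0504 in the same edgeR test). Mir223, abundant in granulocytes, had 308 and 155 CPM in MEP, against 297 and 590 CPM in Erythroid, so the groups overlapped (-0.94 ± 0.34). The summed level of the 3 was 347 and 169 CPM in MEP, against 348 and 735 CPM in Erythroid. Mir142 and Mir142b, antisense to each other and found across blood cells, had log2 fold changes of -1.69 ± 0.53 and -1.68 ± 0.47, and only Mir142b passed. The call of Mir142b was lost without MEP library 2 (adjusted p = 0.185) and without Erythroid library 2 (adjusted p = 0.265), and that of Mir147 without MEP library 1 (adjusted p = 0.0737) and without Erythroid library 2 (adjusted p = 0.0931). The part of cells of other types in the differences between the libraries was not tested.

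None of 8 tested stem and progenitor, 8 lymphoid and 4 megakaryocyte and platelet miRNAs passed, with median log2 fold changes of -0.04, -0.28 and -0.17. Of all 202 tested miRNAs 1 rose and 5 fell, beside 5.47% higher and 4.41% lower of all 749 intervals. No call in miRNA lists this short is near the share of their class, and says little about these cell types. Mir196b, a HOX cluster miRNA of early progenitors, had 3.73 and 1.88 CPM in MEP, against 0.603 and 1.20 CPM in Erythroid (1.63 ± 0.73). Mir10a had 349 and 134 CPM in MEP, against 215 and 537 CPM in Erythroid, and none of the 15 tested miRNAs of the Mir17-92 family clusters passed. Of the snoRNAs of the imprinted Dlk1-Gtl2 locus, named in the series title, 5 of 8 intervals were listed in these libraries and none passed the filter. Their summed counts were 16 and 24 in MEP, against 6 and 10 in Erythroid.

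Over all 202 tested miRNAs, 1 rose and 5 fell, beside 5.47% higher and 4.41% lower of all 749 intervals. Their median log2 fold change was -0.37. That median followed the libraries used: it was 0.40 without Erythroid library 2 and -1.13 without MEP library 1. Between the libraries of higher miRNA share, MEP library 1 over Erythroid library 2, the median log2 ratio was -0.27, and between those of lower share, MEP library 2 over Erythroid library 1, it was -0.24. In both pairs 49 miRNAs were higher in MEP and 102 lower, and 51 were mixed. The pairs were chosen from these data for their like miRNA share, so agreement between them is no independent support. Mir223 gave -0.94 and -0.93, Mir139 -1.85 and -1.89, and Mir142b -1.66 and -1.68 in the 2 pairs. Of the erythroid intervals, the abundant Mir451a gave 0.004 and 0.13. Mir144 gave 0.60 and 1.10 and Mir486 1.13 and 0.99, but these were scarce, with 14 and 22 counts in Erythroid library 1.

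**Figure D4:**
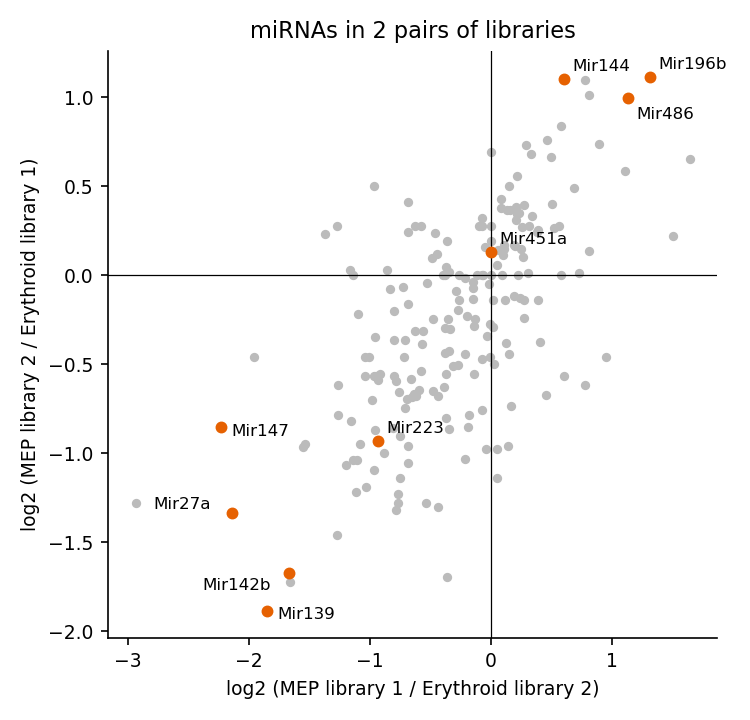
Each point is 1 of 202 tested miRNAs, with the log2 ratio of MEP library 1 over Erythroid library 2 on the horizontal axis and of MEP library 2 over Erythroid library 1 on the vertical axis, with 0.5 CPM added. Mir223, Mir139, Mir142b, Mir147 and Mir27a lie below 0 in both pairs, Mir144, Mir486 and Mir196b lie above 0, and Mir451a lies close to 0.

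The same step in the granulocyte-monocyte branch, GMP against Myeloid, shows which differences were shared. The difference between the branches, MEP minus Erythroid less GMP minus Myeloid on the log2 scale, passed for 69 of 749 intervals (9.21%), 27 higher (3.6%) and 42 lower (5.61%), by edgeR's quasi-likelihood test. GMP against Myeloid itself gave 238 calls (31.8%). The difference passed for 24 without Erythroid library 1 and for 22 without Myeloid library 1. Snora43 was higher in the progenitor of both branches, with log2 fold changes of 3.08 for MEP over Erythroid and 1.72 for GMP over Myeloid (difference 1.35 ± 0.19, adjusted p 0.00117). Gm47276 gave 1.11 and -0.46 (difference 1.57, adjusted p 0.000472), and Snord49b gave 0.51 and -0.20 (difference 0.72, adjusted p 0.000472). Gm25117 gave -0.87 and 0.20 (difference -1.06 ± 0.15, adjusted p 0.000841). Gm47276, Snord49b and Gm25117 had opposite signs in the 2 branches, but Gm25117 did not pass between GMP and Myeloid (adjusted p = 0.174 in edgeR's quasi-likelihood test).

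Snord71 gave -0.70 for MEP over Erythroid and -0.96 for GMP over Myeloid, lower in the progenitor of both branches, with a small difference of 0.26 (adjusted p 0.0424 in the same edgeR test). Snord70 gave 0.78 and 0.73, and the difference of 0.05 did not pass (adjusted p = 0.821). Snord118 (U8) gave 0.16 and -0.99 (difference 1.15, adjusted p 0.00024), and Rn7sk gave -0.24 and 0.86 (difference -1.10, adjusted p 0.000472), so both differed between the branches while neither passed between MEP and Erythroid. Snord123 of Snhg18, chosen after its values were seen, had 10.6 and 9.90 CPM in MEP, against 5.91 and 5.21 CPM in Erythroid, and gave 0.88 and -2.23 (difference 3.11, adjusted p 7.3e-05). Its rise in MEP was lost without MEP library 2 (adjusted p = 0.0675) and without Erythroid library 2 (0.0652).

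**Figure D5:**
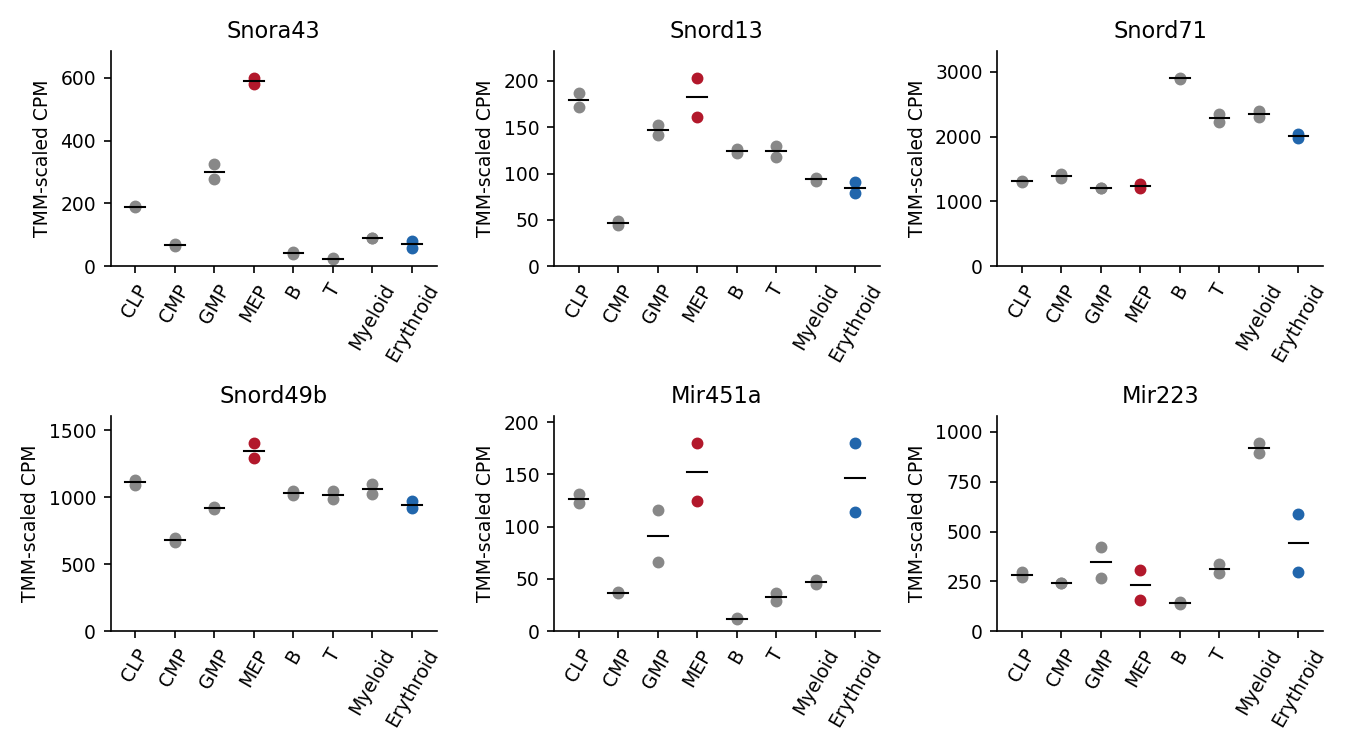
Points are the 2 libraries and lines their means in TMM-scaled CPM, for 6 intervals in the 8 populations, with MEP in red and Erythroid in blue. Snora43 and Snord49b are highest in MEP, Snord71 is lower in the 4 progenitors than in the 4 mature populations, and the libraries of MEP and of Erythroid overlap for Mir451a.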

How the data were processed

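Small RNA was sequenced from Trizol RNA in gel-selected libraries of about snoRNA length, per the labels' protocols. Trimmomatic 0.38, Bowtie2 2.3.4.1 and GRCm38 are named per the submitters' processing notes; the counter, annotation and use of strand are not given in the sources used here. The authors deposited raw read counts per interval; 89.0% to 93.2% of values were even, and intervals missing from a file were taken as 0. Of 1885 intervals, 1884 matched GENCODE M21 coordinates. Host genes were assigned by position, and similar copies with blastn 2.17.0 (90% identity, 80% coverage). Counts were fitted with edgeR 4.0.16 in R 4.3.3 over all 16 libraries with 1 mean per population (8 residual degrees of freedom), filterByExpr at a minimum count of 10, TMM scaling and Benjamini-Hochberg adjustment over 749 intervals at 0.05; the SE is the log2 fold change over the root of F. Replicate libraries differed beyond sampling noise, and unequally. The chi-square per degree of freedom between the 2 libraries was 83.9 in MEP, 94.7 in Erythroid, 111 in GMP and 7.65 in Myeloid. A spread shared by all populations can thus be too small for MEP and Erythroid, above all for miRNAs. Their SE and p can then be too small as well. On simulated data most 8-fold changes passed, but most 2-fold changes did not, so an interval that did not pass is not shown to be unchanged. Alternatives covered scaling, filter, libraries, replicate block, DESeq2 1.42.0 and features. Named were the 10 largest called rises and falls whose mean reached 10 CPM and whose groups did not overlap, the 5 most abundant intervals, the 5 called C/D and H/ACA snoRNAs of smallest p per direction above 100 CPM, the listed markers and the 5 smallest p per direction between branches; other snoRNAs of named hosts, mitochondrial RNAs and Rnu7 are examples chosen after their values were seen. Members and lists were chosen with earlier results of these data known, and the alias Mir486 and the 5S and box classes were set after values were seen.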

Additional observations from a re-analysis of the deposited data

Results flagged for a closer look

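For 25 named intervals the difference between MEP and Erythroid was not the same as that between GMP and Myeloid. In edgeR's quasi-likelihood test of the difference itself, 69 of all 749 intervals passed (9.21%). The count of 25 cannot be set against that share, because some intervals were named for their small p in this test. Gm24148, mmu-mir-3535, Gm25878 and Gm23187 were named for that alone, and Gm47281, Gm25106, Gm23744, Snord49b, Snord118 and Rn7sk also met that rule. Gm47276 and Gm47281 have the same bases, and Gm24148 lies within mmu-mir-3535, so the 25 are not separate results. The values here are the difference between branches on the log2 scale, MEP over Erythroid less GMP over Myeloid. Among intervals that were higher in MEP, it was 1.35 for Snora43, 1.33 for Gm22059, 1.57 for Gm47276, 1.52 for Gm47281, 0.72 for Snora26, 0.46 for Snord65, 0.72 for Snord49b and 0.32 for Snord34. Among those that were lower in MEP, it was -1.12 for Gm25291, -1.06 for Gm25117, -2.09 for the snRNA interval Gm25106, -1.85 for the snRNA interval Gm23744, -0.94 for Gm23734, -0.34 for Snord12 and 0.26 for Snord71. Among those that did not pass between MEP and Erythroid, it was -0.39 for Gm23301, 1.15 for Snord118, -1.03 for 1 Rnu3b4 interval, -0.91 for Snord14a, -1.10 for Rn7sk, 1.10 for Gm24148, 1.23 for mmu-mir-3535, -0.70 for Gm25878 and -1.08 for Gm23187. The fitted difference of 6.63 for Mir10b depends on the prior count, since Mir10b had 6 and 4 counts in MEP and 4 and 9 in Erythroid, and 0 in both GMP libraries against 16 and 33 in Myeloid.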

How the results depend on the processing

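The 74 calls between MEP and Erythroid became 39 with RLE scaling, 49 with no filter, 26 with 8 libraries in the fit, 0 with the 4 libraries alone (95 at an unadjusted p below 0.05) and 18 without intervals that have copies or overlaps, and leaving out 1 library gave 30 to 81. The library number as a replicate block gave 70 calls over all libraries and 0 over the 4 libraries (44 at an unadjusted p below 0.05). Deviations of same-numbered libraries correlated at -0.640 over 749 intervals and at -0.120 over the 547 that are not miRNAs. The labels do not say whether the numbers pair samples, and these values cannot tell. The crossed pairing, added after seeing the data, gave 146 calls. It follows the same deviations, so this count is no test of it. Without both libraries of lower miRNA share there were 28 calls, and without both of higher share 38; these were added after seeing the data too. The 69 differences between branches became 28 with RLE scaling, 26 with 8 libraries and 5 without copies or overlaps, and 22 to 94 with 1 library left out; library totals moved their median over all intervals to 0.21. The cause of these changes was not tested. None of the 28 called intervals named by rule, nor of 11 further called ones given as examples in settings with other populations in the fit, changed direction. Depth limits miRNAs, which held under 2% of counts in each of the 4 libraries.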
